A study of Mus musculus with 4 samples.

Results

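The collagen chaperone gene *Serpinh1* was examined together with collagen genes and genes of hepatic stellate cells in the livers of WT and *Usp21* KO mice. The set held 10 of the 35739 genes in the deposited TPM table, taken by symbol with earlier results of these data known: *Serpinh1*, the collagen chain genes *Col1a1*, *Col1a2*, *Col3a1* and *Col4a1*, the matrix genes *Sparc* and *Dcn*, and the stellate cell genes *Lrat*, *Reln* and *Rgs5*. The question was whether *Serpinh1* moves with collagen and stellate cell genes. RNA-seq libraries came from whole liver, 2 of WT (labelled replicates 2 and 3) and 2 of *Usp21* KO (labelled replicates 1 and 3). The mice were littermates aged 10 to 11 weeks on a normal diet, and their sex was not given in the sources used here. The *Usp21* KO allele lacks exons 3 and 4 in the whole animal, excised by Cre from a floxed allele made in 129/Sv ES cells, and the litters carried a mixed C57BL/6 and 129/Sv background. The labels name liver and no sorted cells, so every value is an average over the cells of the tissue.

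Stellate cells lie between hepatocytes and sinusoidal endothelium, store vitamin A as retinyl ester and are the main source of collagen when the liver scars. Fibrillar collagen chains are made in the endoplasmic reticulum (ER), where prolines and lysines are hydroxylated, the chains wind into a triple helix, and the helix is held by Hsp47, the protein that *Serpinh1* encodes. Hsp47 differs from most ER chaperones in binding mainly collagen, and its gene is also known as a heat shock gene. In bulk liver, fewer cells of a type and less RNA per cell cannot be told apart.

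*Usp21* itself was lower in KO, at 4.07 and 6.29 TPM (a relative abundance corrected for transcript length) in WT and at 1.64 and 2.93 TPM in KO, a log2 fold change of -0.92 (limma, adjusted p = 0.464). The genotypes did not overlap. The deposited TPM columns totalled 997566 to 998290 in each library, and 12876 to 13620 genes were above 0. The second deposited table, of TMM-normalized CPM, held between 102898 and 148164 reads per library and listed all 10 genes at 0 in all 4 libraries, as it did for 428 of the 682 genes that reached 100 TPM in all libraries, so only the TPM values describe this set. Fold changes below are differences of group means on the log2(TPM + 1) scale, which understates the change of low genes, and the 9581 genes averaging 1 TPM or more over the libraries were tested with limma. Of the 10 genes, 9 passed that filter and *Col1a1* did not.

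RefSeq windows on GRCm38.p6, from 250 bases before the start to 50 after it, were given for 8 of the 10 genes (not for *Col1a1* and *Dcn*). The windows of *Serpinh1* and *Rgs5* are shown because these genes had the largest differences of the set, and that of *Col4a1* because it holds the start that the gene shares with *Col4a2*. The *Serpinh1* window lies on the reverse strand at chr7:99353190-99353489, the *Rgs5* window on the forward strand at chr1:169655251-169655550 and the *Col4a1* window on the reverse strand at chr8:11312777-11313076. Each is written 5′ to 3′ on the strand of its gene, with matches to the letters listed after them in capitals.
Serpinh1: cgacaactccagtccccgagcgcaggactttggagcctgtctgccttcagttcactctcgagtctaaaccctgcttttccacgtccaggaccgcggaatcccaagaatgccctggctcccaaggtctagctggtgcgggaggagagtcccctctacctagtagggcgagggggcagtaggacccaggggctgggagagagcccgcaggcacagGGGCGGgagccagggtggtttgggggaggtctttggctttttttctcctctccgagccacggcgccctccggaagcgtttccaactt
Rgs5: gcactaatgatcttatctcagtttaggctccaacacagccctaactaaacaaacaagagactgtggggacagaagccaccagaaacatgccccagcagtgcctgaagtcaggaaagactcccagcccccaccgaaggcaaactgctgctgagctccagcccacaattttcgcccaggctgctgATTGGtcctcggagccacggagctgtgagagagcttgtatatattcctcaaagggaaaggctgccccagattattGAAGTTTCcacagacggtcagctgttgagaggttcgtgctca
Col4a1: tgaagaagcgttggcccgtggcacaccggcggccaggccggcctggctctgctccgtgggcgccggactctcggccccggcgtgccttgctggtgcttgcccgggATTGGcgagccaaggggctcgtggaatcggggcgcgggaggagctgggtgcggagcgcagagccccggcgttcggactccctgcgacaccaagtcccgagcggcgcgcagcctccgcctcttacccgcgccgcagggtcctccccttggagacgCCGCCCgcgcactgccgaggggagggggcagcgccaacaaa

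The letters searched were a heat shock element (GAANNTTC or TTCNNGAA), the CCAAT box, whose letters are its name, a TATA box with the letters TATAAA, and a GC box with the letters GGGCGG. Each was searched on both strands, and no motif contains another. Of the 32851 mouse windows of this length, 15.1% held the heat shock letters, 37.4% the CCAAT letters, 13.6% the TATA letters and 35.7% the GC box letters. Among the 8 windows, the heat shock letters occurred in 1 (*Rgs5*), the CCAAT letters in 4, the TATA letters in 1 (*Col3a1*) and the GC box letters in 5. The capitals in the *Serpinh1* window mark a GC box, those in the *Rgs5* window a CCAAT box and then the heat shock letters, and those in the *Col4a1* window a CCAAT box and then a GC box. No heat shock letters were found in the 300 bases of *Serpinh1*, while 10 of the 14 listed heat shock genes with a window had them. Some of those genes had more than 1 window and were counted if any window matched, whereas *Serpinh1* had 1. These matches describe letters in 1 window per start and say nothing of what binds there.

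*Serpinh1* (ENSMUSG00000070436) lies on chromosome 7 from 99345376 to 99353239 on the reverse strand of GRCm38 (GENCODE M21), and its longest coding transcript has 5 exons. Its level was 2.05 and 2.17 TPM in the WT livers, against 8.29 and 4.44 TPM in KO replicates 1 and 3. Both KO libraries stood above both WT libraries, and KO replicate 1 stood well above KO replicate 3. The means were 2.11 ± 0.0870 TPM in WT against 6.36 ± 2.72 TPM in KO (SD, n = 2 each), a ratio of 3.02 in TPM. The log2 fold change was 1.19 with a standard error of 0.32 and did not pass the threshold (limma, adjusted p = 0.464, unadjusted p = 0.0118). It was 0.81 without KO replicate 1 and 1.58 without KO replicate 3. The study had picked *Serpinh1* from these same libraries, so its difference is not independent evidence.

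The type I collagen genes were among the lowest of the set. *Col1a1* (chromosome 11, 94936224 to 94953042, 51 exons) encodes the alpha1 chain and was at 0.249 and 0.697 TPM in WT against 1.19 and 0.566 TPM in KO. KO replicate 3 fell inside the WT range, and the log2 fold change, fitted without the filter, was 0.35 with a standard error of 0.27. *Col1a2* (chromosome 6, 4504814 to 4541544, 52 exons) encodes the alpha2 chain and was at 0.999 and 1.14 TPM in WT against 2.35 and 1.25 TPM in KO. The KO libraries were both above WT, but KO replicate 3 only slightly. Its log2 fold change was 0.41 with a standard error of 0.31 (limma, adjusted p = 0.630), and 0.12 without KO replicate 1.

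*Col3a1* (chromosome 1, 45311538 to 45349706, 51 exons), which encodes the chain of type III collagen, was at 1.05 and 4.05 TPM in WT against 6.63 and 3.46 TPM in KO. The WT libraries were further apart than the group means, and the genotypes overlapped. The log2 fold change of 0.86 had a standard error of 0.51 (limma, adjusted p = 0.552) and fell to 0.21 when WT replicate 2 was left out, against 1.51 when WT replicate 3 was.

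*Col4a1* (chromosome 8, 11198423 to 11312826, 52 exons) encodes a chain of the type IV network of basement membranes, which lines vessels and surrounds stellate cells. It was at 1.41 and 3.19 TPM in WT against 4.78 and 5.21 TPM in KO, with the genotypes apart and KO replicate 3 the highest. Its log2 fold change was 0.92 with a standard error of 0.33 (limma, adjusted p = 0.464, unadjusted p = 0.0360), and 0.52 without WT replicate 2. The gene starts 21 bp from *Col4a2*, its partner in the type IV collagen helix, which runs the other way and overlaps it at the start. *Col4a2* was at 1.29 and 0.970 TPM in WT against 2.36 and 2.18 TPM in KO, also without overlap, with a log2 fold change of 0.62 (limma, adjusted p = 0.478). Both neighbours stood higher in the KO libraries, with the WT libraries in opposite order.

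The matrix genes were the most abundant. *Dcn*, which encodes decorin, a small proteoglycan that binds collagen fibrils, was at 42.6 and 34.1 TPM in WT against 62.8 and 48.4 TPM in KO (chromosome 10, 97479609 to 97518143, 8 exons). The genotypes did not overlap, and the log2 fold change was 0.52 with a standard error of 0.22 (limma, adjusted p = 0.478, unadjusted p = 0.0550). *Sparc*, which encodes a secreted collagen-binding glycoprotein, was at 17.3 and 12.6 TPM in WT against 24.1 and 17.6 TPM in KO (chromosome 11, 55394500 to 55423183, 10 exons). KO replicate 3 was barely above WT replicate 2. Its log2 fold change was 0.45 with a standard error of 0.25 (limma, adjusted p = 0.537). Without KO replicate 1 the difference was 0.23 for *Sparc* and 0.34 for *Dcn*.

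The stellate cell genes did not share 1 pattern. *Lrat*, which makes the retinyl ester stored in stellate cells, was at 2.02 and 1.24 TPM in WT against 1.96 and 2.09 TPM in KO (chromosome 3, 82892579 to 82903973, 2 exons). WT replicate 2 lay between the KO libraries. The log2 fold change was 0.22 with a standard error of 0.28 (limma, adjusted p = 0.782), and was 0.00 without WT replicate 3. *Reln*, which encodes a large secreted protein made by stellate cells in liver, was at 7.02 and 4.52 TPM in WT against 10.3 and 7.74 TPM in KO (chromosome 5, 21884454 to 22344702, 65 exons). The genotypes did not overlap, and the log2 fold change was 0.58 with a standard error of 0.28 (limma, adjusted p = 0.508), and 0.31 without WT replicate 3.

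*Rgs5*, which encodes a brake on G protein signaling found in pericytes and stellate cells, had the largest difference of the set. It was at 3.81 and 2.62 TPM in WT against 13.6 and 8.58 TPM in KO (chromosome 1, 169655501 to 169695813, 5 exons). Each KO library was well above WT. The means were 3.21 ± 0.840 and 11.1 ± 3.58 TPM (SD, n = 2 each), a ratio of 3.46, and the log2 fold change was 1.51 with a standard error of 0.31 (limma, adjusted p = 0.405, unadjusted p = 0.00317). Leaving out each library in turn gave 1.20 to 1.81. *Rgs5* lies 1586132 bp from *Usp21* on the same chromosome, and whether the alleles at *Rgs5* differed between the mice was not tested. *Col4a1*, *Lrat* and *Reln* overlap annotated antisense genes, and since the strand setting was not given in the sources used here, reads of the antisense genes cannot be told apart from theirs where the transcripts overlap.

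**Figure D1:**
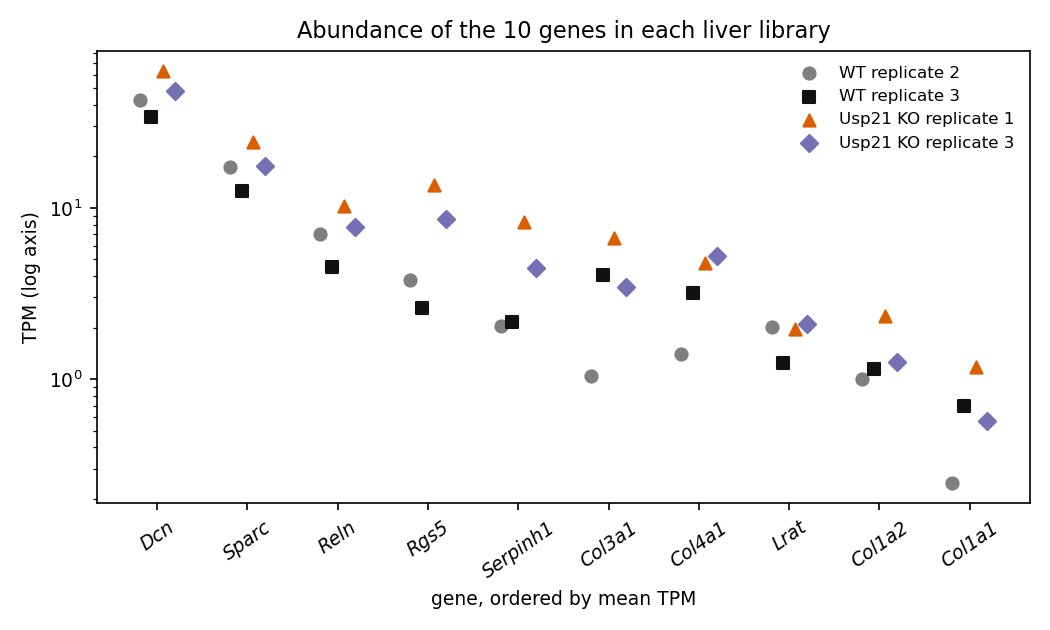
Level in TPM (log axis) of each of the 10 genes in the 2 WT and 2 *Usp21* KO libraries, 1 point per library, ordered by mean level. *Dcn* stands highest, from 34.1 to 62.8 TPM, and *Col1a1* lowest, from 0.249 to 1.19 TPM, and KO replicate 1 is the highest point for 8 of the 10 genes.

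In order of mean TPM the genes ran *Dcn*, *Sparc*, *Reln*, *Rgs5*, *Serpinh1*, *Col3a1*, *Col4a1*, *Lrat*, *Col1a2* and *Col1a1*. The ranges of *Dcn*, *Sparc* and *Reln* over the 4 libraries did not overlap one another. From *Reln* down, the range of each gene overlapped that of the next. Within each library *Rgs5* was nevertheless above *Serpinh1*, and *Col1a2* above *Col1a1*, in 4 of 4.

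All 10 genes had a higher mean log2(TPM + 1) in KO, as did 66.7% of all tested genes. The 9 tested ones stayed higher with the libraries set to a common upper quartile or median, where 54% and 45.5% of tested genes were higher. For 7 genes the lower KO library stood above the higher WT library, against 34.4% of tested genes, and for 0 genes the KO libraries both lay below WT, against 10.9%. These background shares depended on the scaling: 24.6% above and 18.6% below with the upper quartile, and 18.6% above and 25.8% below with the median. The members without overlap were then 6 with the upper quartile, where *Sparc* was lost, and 4 with the median, which were *Serpinh1*, *Rgs5*, *Col4a1* and *Dcn*. An unadjusted p under 0.05 was reached by 3 genes (*Serpinh1*, *Col4a1* and *Rgs5*), all higher in KO, against 8.45% of tested genes, and a difference of at least 2-fold by 2 genes (*Serpinh1* and *Rgs5*), against 2.59%. At an adjusted p under 0.05, limma called 0 of the 9 tested genes, against 0.0835% (8 of 9581). An exact permutation test of 2 against 2 libraries cannot give a p below 0.333.

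**Figure D2:**
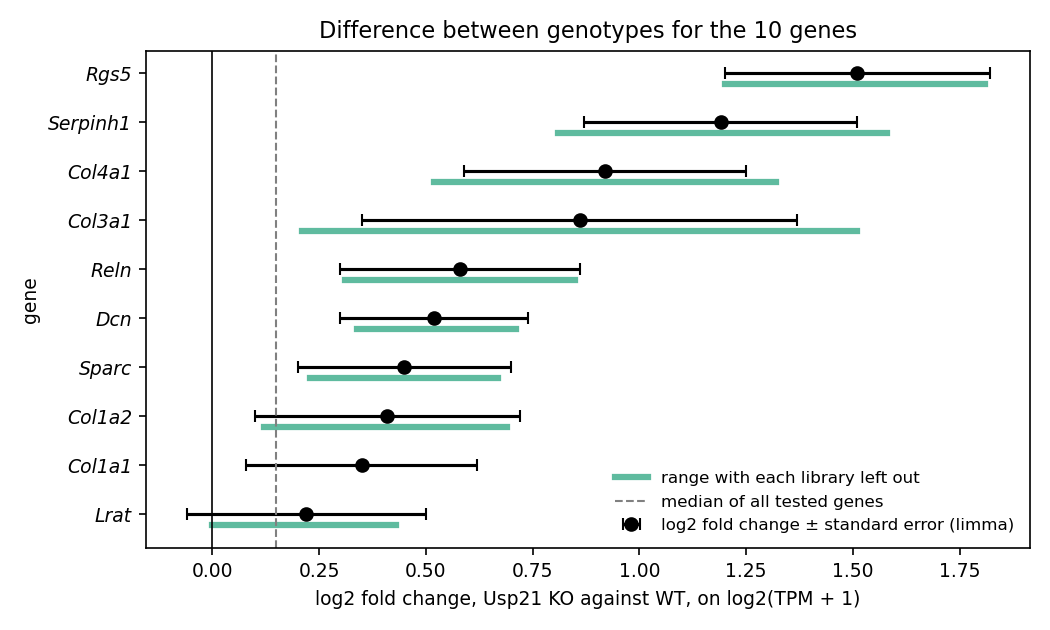
Log2 fold change of *Usp21* KO against WT on the log2(TPM + 1) scale for each gene, with points for the limma estimate, bars for ± 1 standard error and thick lines for the range when each of the 4 libraries was left out in turn (not run for *Col1a1*, which was under the filter). *Rgs5* at 1.51 and *Serpinh1* at 1.19 stand farthest from the median of all tested genes (dashed, 0.15), and *Lrat* at 0.22 is nearest to it.

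The median log2 fold change was 0.55 over all 10 genes and 0.15 over all tested genes, and the median of all tested genes was 0.04 with upper quartile scaling and -0.05 with median scaling. KO replicate 1 was the highest library for 8 of the 10 genes (*Col4a1* and *Lrat* were highest in KO replicate 3), against 45.9% of tested genes. KO replicate 1 was above KO replicate 3 for 64.6% of tested genes as deposited and for 49.7% with median scaling, while the count for the set was 8 of 10 under each scaling. WT replicate 2 was the lowest library for 5 genes, among them *Serpinh1* and the 4 collagen chains, and WT replicate 3 for the other 5, which were *Sparc*, *Dcn*, *Lrat*, *Reln* and *Rgs5*. Among all 7 tested collagen chains, however, WT replicate 3 was the lower WT library for 4 (*Col18a1*, *Col5a3*, *Col14a1* and *Col4a2*), so the split did not hold for the family.

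Likeness to *Serpinh1* was measured as the root mean square (RMS) difference between the profiles of log2(TPM + 1) over the 4 libraries, each centred on its own mean, so that 0 means the same profile. The *Serpinh1* profile was -0.62 and -0.57 in WT and 0.98 and 0.21 in KO. *Rgs5* was the nearest of the set at 0.235, with 1.24% of tested genes nearer to *Serpinh1*. *Dcn* (0.388), *Reln* (0.398) and *Col1a2* (0.399) followed, then *Sparc* (0.425), *Col4a1* (0.429), *Col1a1* (0.457) and *Col3a1* (0.471), and *Lrat* was farthest at 0.596. The median of all tested genes was 0.607. The stellate gene *Rgs5* was thus closer to *Serpinh1* than any of the 4 collagen chains were. The distance reflects the size of a difference as well as its shape, and these 2 genes had the largest differences of the set. The log2(TPM + 1) scale also shrinks the profiles of low genes such as *Col1a1* and *Col1a2*. With 4 libraries these distances rest on few points and carry no test. They were taken on the TPM as deposited and were not repeated with another pseudocount or scaling.

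The 5 genes with at least 10 TPM that lay nearest to *Serpinh1*, among 4025 such genes, were *Got1* (RMS 0.106), *Spp1* (0.124), *Lifr* (0.144), *Abcc6* (0.144) and *Nop58* (0.146). None is on the collagen or stellate lists used here, but the floor of 10 TPM had removed most tested genes of those lists. *Rgs5* was among those removed (mean 7.16 TPM), and *Serpinh1* itself averaged 4.24 TPM. *Got1*, which encodes a cytosolic aspartate aminotransferase, was at 98.1 and 83.8 TPM in WT against 263 and 150.5 TPM in KO. *Spp1*, which encodes osteopontin and is a marker of bile duct cells, was at 13.2 and 12.7 TPM in WT against 33.4 and 20.7 TPM in KO. *Lifr*, which encodes the receptor of leukemia inhibitory factor, had a log2 fold change of 1.19, the same as *Serpinh1*. Profiles of this shape thus also occurred in genes outside the collagen and stellate lists.

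**Figure D3:**
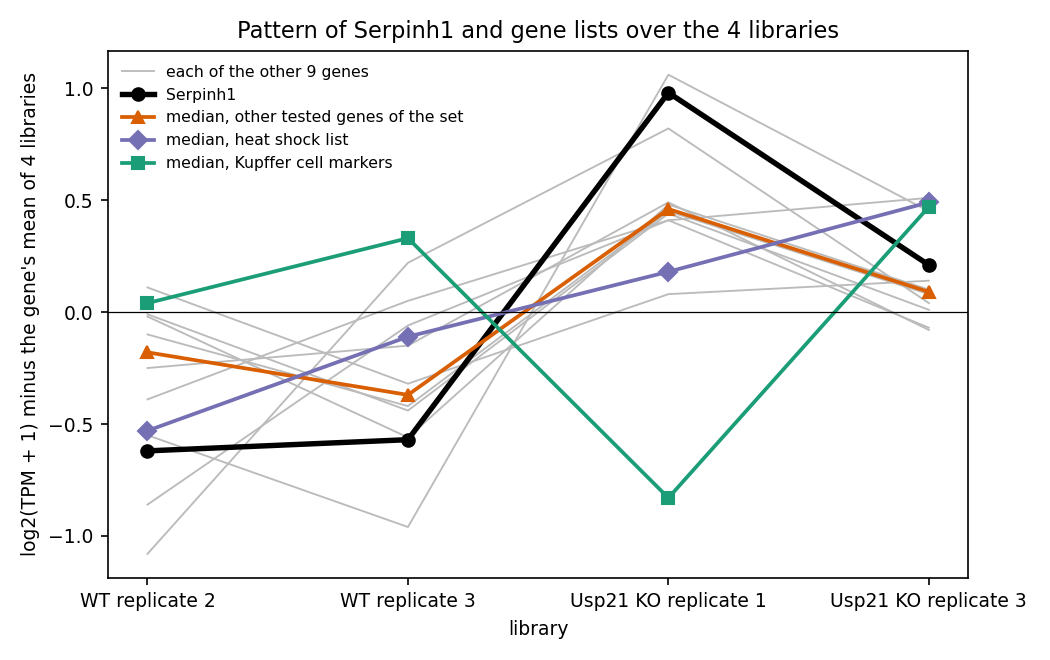
Log2(TPM + 1) of each gene minus its mean over the 4 libraries, by library, for *Serpinh1* (black), the other 9 genes (grey), and the medians of the other tested genes of the set, the heat shock list and the Kupffer cell markers. *Serpinh1* and the set peak in KO replicate 1 (0.98 and 0.46), the heat shock list in KO replicate 3 (0.49), and the Kupffer cell markers are lowest in KO replicate 1 (-0.83).

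Lists around these genes were described by counts and medians, and no gene of any list passed the adjusted threshold (limma). Over all tested genes, to be read beside each list, 66.7% were higher in KO by mean (45.5% with median scaling), 34.4% lay above WT without overlap, 8.45% were higher with an unadjusted p under 0.05, and the median was 0.15 (-0.05 with median scaling). Of the 44 collagen chain genes in the table, 13 were at 0 in all libraries and 7 were tested. The tested chains were higher by mean in 7 of 7, without overlap in 4, and had a median log2 fold change of 0.53, with 1 unadjusted p under 0.05 (*Col4a1*). Chains under the filter went both ways, and without a filter the median of 31 chains was 0.08. Among those left out, *Col16a1* was at 1.66 and 1.02 TPM in WT against 0.192 and 0.0597 TPM in KO. Both KO libraries were below WT, with a log2 fold change of -1.04 fitted without the filter. *Col18a1*, a basement membrane chain that hepatocytes also make, was by far the most abundant at 132 and 112 TPM in WT against 130.1 and 124 TPM in KO. Its log2 fold change was 0.06, the lowest of the tested chains, and it alone of the 7 turned to lower with upper quartile and median scaling (list medians 0.46 and 0.41). Most of the summed TPM of the family came from this gene, at 144.5 and 131 in WT and at 160.0 and 147 in KO.

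Enzymes and chaperones that fold and modify collagen in the ER, *Serpinh1* included, were tested for 17 of 25 genes. They were higher by mean in 14 and lower in 3, without overlap above WT in 7 (34.4% of tested genes) and below it in 1 (10.9%), with a median of 0.25 (0.05 and 11 higher with median scaling) and 2 unadjusted p under 0.05 (*Serpinh1* and *P4ha1*). *P4ha1*, a catalytic subunit of prolyl 4-hydroxylase, had the largest difference of the list at 0.754 and 2.42 TPM in WT against 3.86 and 6.89 TPM in KO, a log2 fold change of 1.34 (standard error 0.43, limma adjusted p = 0.464). The other subunit of that enzyme, *P4hb*, which also serves as a general disulfide isomerase, had the lowest at 893 and 714 TPM in WT against 640.3 and 752 TPM in KO (-0.20). *Ppib*, a prolyl isomerase of the collagen hydroxylation complex, was at -0.16 with both KO libraries below WT, and *Mia2*, an ER export factor, was at 0.18 with both above, but lower in KO with median scaling.

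Outside the cell, the genes that cleave procollagen, cross-link it or turn it over were tested for 6 of 19 genes. They were higher in 3 and lower in 3, with a median of -0.03 (-0.23 and 0 higher with median scaling) and 0 unadjusted p under 0.05 by limma, and the genotypes overlapped for all 6. *Fn1*, which encodes fibronectin and is made in quantity by hepatocytes, was at 0.20 but lower in KO with median scaling, *Bmp1*, the procollagen C-proteinase, at -0.11, *Mmp14*, a membrane collagenase, at -0.15, and *Pcolce*, the enhancer of that proteinase, at -0.21.

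Proteoglycans and basement membrane partners were tested for 9 of 15 genes, higher in 8 and lower in 1, with a median of 0.37 (0.23 with median scaling) and 5 without overlap above WT. *Bgn*, which encodes biglycan, was at 20.5 and 26.5 TPM in WT against 34.4 and 46.9 TPM in KO. The difference was 0.76 on the log2 scale with a standard error of 0.24 (limma, adjusted p = 0.464). *Nid2*, which encodes a nidogen, was at 0.285 and 0.424 TPM in WT against 3.41 and 0.835 TPM in KO, so that KO replicate 1 carried most of its log2 fold change of 1.07. *Lama4*, a laminin chain of vessel basement membranes, went the other way at 1.92 and 2.17 TPM in WT against 0.254 and 0.333 TPM in KO, a log2 fold change of -1.23 (standard error 0.26, limma adjusted p = 0.432, unadjusted p = 0.00397).

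**Figure D4:**
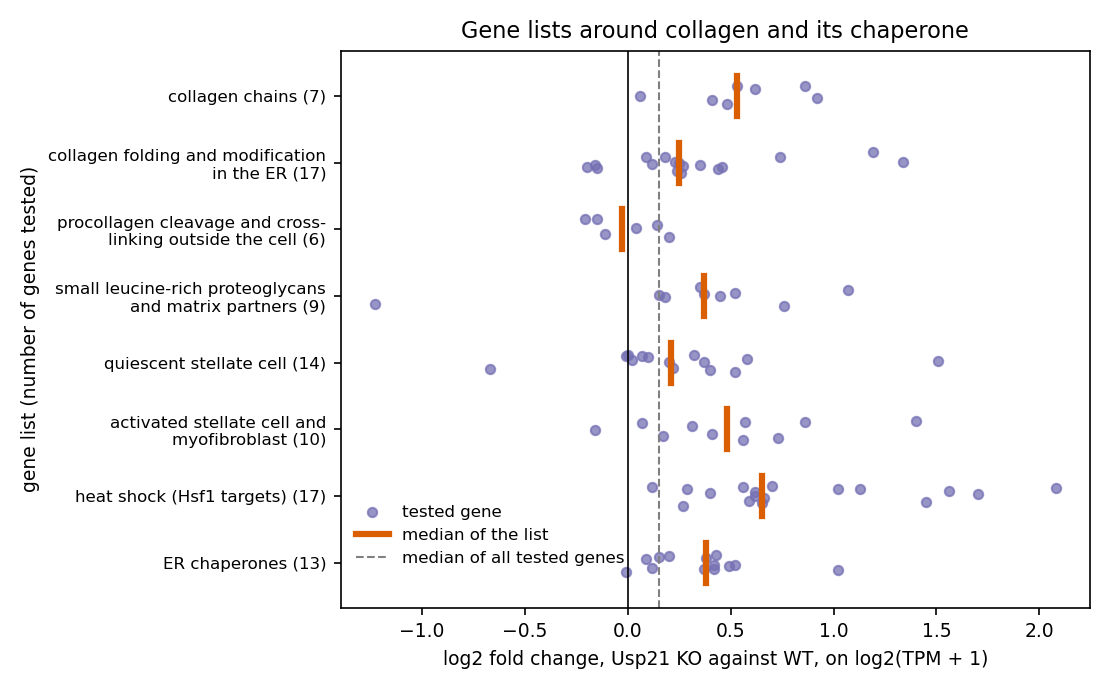
Log2 fold change of *Usp21* KO against WT of each tested gene in 8 lists (points, with random vertical offset for visibility), with the median of each list as a thick bar and the median of all tested genes dashed. The heat shock list has the highest median (0.65), the collagen chains follow (0.53), and the list of procollagen cleavage and cross-linking has the lowest (-0.03).

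Markers of stellate cells in the resting state were tested for 14 of 20 genes, 4 of them members. They were higher by mean in 12 and lower in 2, but without overlap in 3 alone (*Dcn*, *Reln* and *Rgs5*), with a median of 0.21. With median scaling 8 were higher and 6 lower, with a median of 0.05. *Ecm1* was at 62.0 and 38.1 TPM in WT against 80.3 and 46.0 TPM in KO, and *Colec11* at 15.7 and 9.88 TPM in WT against 18.4 and 14.7 TPM in KO. Both were lower in WT replicate 3 than in WT replicate 2, and lower in KO replicate 3 than in KO replicate 1, with overlap. Of the defining markers, *Des* was at 1.64 and 0.872 TPM in WT against 1.22 and 1.23 TPM in KO, and *Gfap* was at 0.176 TPM in WT replicate 2 and listed at 0 in the other libraries.

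Genes that mark activated stellate cells and myofibroblasts were tested for 10 of 18 genes, 2 of them members. They were higher by mean in 9, without overlap in 4, with a median of 0.48 (0.32 with median scaling) and 1 unadjusted p under 0.05 (*Vim*). *Vim* was at 4.89 and 5.91 TPM in WT against 7.85 and 9.11 TPM in KO, and *Postn*, which encodes the matrix protein periostin, at 0.425 and 1.76 TPM in WT against 7.76 and 2.14 TPM in KO. *Tpm2* was the lowest at -0.16. *Timp1* was listed at 0 in all 4 libraries. *Acta2*, the usual marker of myofibroblasts, was under the filter, at 0.422 and 0 TPM in WT against 0.645 and 0.932 TPM in KO. Its genotypes did not overlap, and its log2 fold change, fitted without the filter, was 0.58 with a standard error of 0.23. The summed TPM of the list was 23.9 and 28.7 in WT and 41.3 and 42.6 in KO.

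Since *Serpinh1* is also a heat shock gene, genes known as Hsf1 targets were set beside it. They were tested for 17 of 18 genes, higher in 17, without overlap in 15 and with 9 unadjusted p under 0.05, and the median was 0.65. The 15 without overlap stood against 34.4% of tested genes, and became 12 with upper quartile scaling (24.6% of tested genes) and 8, with 1 below WT, with median scaling (18.6%), where 16 were higher and the median was 0.43. *Hspa8*, the constitutive cytosolic Hsp70, was at 382 and 718 TPM in WT against 1299 and 1569 TPM in KO. The difference was 1.45 on the log2 scale with a standard error of 0.33 (limma, adjusted p = 0.449). *Hsp90ab1* was at 0.70, *Hspe1* at 0.29 and *Hspd1*, the lowest, at 0.12, which turned to lower with upper quartile and median scaling. *Hspa1b* had the highest value at 2.08, but it shares nearly all of its sequence with *Hspa1a*, so its level is uncertain. The list differed from *Serpinh1* in which KO library was higher: 16 of its 17 tested genes were higher in KO replicate 3 than in KO replicate 1, whereas *Serpinh1* was at 8.29 TPM in KO replicate 1 and 4.44 TPM in KO replicate 3. The median RMS distance from *Serpinh1* was 0.399 for the collagen chains and 0.412 for the other tested members, which share *Col1a2*, *Col3a1* and *Col4a1*. It was 0.49 for the proteoglycan list, 0.502 for the activated stellate list, 0.536 for the heat shock list and 0.592 for the resting stellate list. The other genes of collagen folding were at 0.608 and procollagen cleavage at 0.672, beside 0.607 for all tested genes. The 2 tested bile duct markers, *Spp1* and *Sox9*, were nearer than any of these lists, at 0.296. Other cell marker lists ran from 0.553 (smooth muscle and pericyte, 1 gene) to 1.08 (Kupffer cell). The general ER chaperones (13 of 13 tested, higher in 12 or, with median scaling, 8, median 0.38, but 0.09 without KO replicate 3 and 0.68 without KO replicate 1, 0 unadjusted p under 0.05 by limma) were farther, at 0.673, with *Hspa5* at 260 and 256 TPM in WT against 274 and 478 TPM in KO and *Creld2* at 19.2 and 17.5 TPM in WT against 20.1 and 71.6 TPM in KO, each highest in KO replicate 3.

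Markers of other liver cells were measured in the same libraries. The 6 hepatocyte markers were lower by mean in 4. Without overlap, 2 lay below WT (10.9% of tested genes) and 0 above it (34.4%). Their median was -0.14, which was -0.37 with median scaling, 0.01 without WT replicate 2 and 0.05 without KO replicate 3. The log2 fold changes ran from -0.35 for *Alb*, with both KO libraries below WT, to 0.24 for *Cps1*. *Ttr*, with a log2 fold change of -0.04, was at 7733 and 6787 TPM in WT against 7134 and 6935 TPM in KO. It was high in every library, as the tissue label says. The 12 sinusoidal endothelial markers were higher by mean in 10 (6 with median scaling), with a median of 0.17 (0.35 without WT replicate 2 and 0.04 without KO replicate 3) and a summed TPM of 96.0 and 72.4 in WT and 84.4 and 105 in KO. Without overlap, 3 lay above WT (34.4% of tested genes) and 0 below it (10.9%). An unadjusted p under 0.05 was reached by 1 (*Lyve1*, log2 fold change 0.98, limma). *Lyve1*, with a mean of 1.25 TPM, was nearer to *Serpinh1* (RMS 0.181) than *Rgs5* was (0.235). The 10 Kupffer cell markers were lower by mean in 8, with a median of -0.33 that was 0.24 without KO replicate 1 and -1.03 without KO replicate 3, and a summed TPM of 220 and 258 in WT and 118 and 299 in KO, lowest in KO replicate 1, the library in which 8 members were highest. Markers of bile duct cells were tested for 2 of 6 genes (*Spp1* and *Sox9*), and their summed TPM was 14.6 and 16.2 in WT and 38.3 and 24.5 in KO, nearly all of it from *Spp1*. Other matrix-producing cells left little signal: 2 of 7 portal fibroblast markers, 1 of 8 smooth muscle and pericyte markers and 0 of 6 mesothelial markers were tested, with summed TPM of 9.57 to 15.7, 1.83 to 5.66 and 0.624 to 1.71 over the 4 libraries and *Cspg4* listed at 0. The part of these cells in the differences of the set was not tested.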

How the data were processed

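Liver RNA was measured in 2 WT and 2 *Usp21* KO libraries, grouped by their labels, and nothing states that same-numbered mice were paired. According to the submitters' notes the tools were Salmon, HTSeq and edgeR with build mm10 (versions not given). The authors deposited salmon TPM for 35739 genes, the same values as log2(TPM + 1), and TMM-normalized CPM for 55335 genes. The TPM keep no depth. The deposited CPM, a signal made from scaled counts, gave whole reads for 100% of values within 0.02 reads, or 102898 to 148164 reads per library.

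The members and lists were chosen with earlier results of these data known. The 9581 genes averaging 1 TPM or more were tested on log2(TPM + 1) by limma 3.58.1 in R 4.3.3 (eBayes with trend, prior degrees of freedom 3.62, two-sided, Benjamini-Hochberg adjustment over all tested genes, threshold 0.05), with genotype alone in the model. Listed genes below 1 TPM were fitted with no filter. P-values measure only the spread between these libraries. Genes named were the 10 members, *Usp21*, genes from the 3 most abundant and the highest and lowest of each list, and the 5 nearest to *Serpinh1* with at least 10 TPM. For the ER chaperones and the cell marker lists, only some of the genes this rule gave were named. *Col4a2*, *Des*, *Gfap*, *Acta2*, *Timp1*, *Col5a3*, *Col14a1*, *Cspg4* and members named again within a list were added as partners or defining markers after their values were seen. *Col16a1* was added, also after its value was seen, as a chain under the filter that was lower in KO. The values of 1 listed gene are not reported here. Alternatives were other pseudocounts, filters and scalings, variances without moderation, the CPM table with limma, edgeR 4.0.16 and DESeq2 1.42.0 on the recovered reads, and each library left out. The fit was tested on simulated data in which 200 of 9581 genes were changed. At the adjusted threshold it recovered 0% of changes of 1 on the log2 scale and 76.5% of changes of 2. Differences near 1 could thus be missed. At most 1.44% of the stretches of 31 bases of a member's transcripts occur in another gene.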

Additional observations from a re-analysis of the deposited data

How the results depend on the processing

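The log2 fold change of each tested member kept its sign under all 11 alternatives that gave a value (94 values, 0 of the opposite sign), and no member passed the adjusted threshold under any of them (lowest adjusted p 0.366, limma). The CPM table, edgeR and DESeq2 gave no value for a member. *Serpinh1* ranged from 0.81 to 1.58 with 1 library left out. The members with an unadjusted p under 0.05 were 1 with a mean of at least 5 TPM (4 members tested), 0 without moderation, and 1 to 3 with 1 library left out (1 without WT replicate 2). Members at least 2-fold higher were 4 with a pseudocount of 0.1, 0 with 5, 1 above 5 TPM and 1 (without KO replicate 1) to 4 (without WT replicate 3) with 1 library left out. Members without overlap were 4 with median scaling. The median of the collagen chains was 0.86 with a pseudocount of 0.1, 0.22 with 5, 0.08 without a filter (31 genes) and 0.06 with a mean of at least 5 TPM (1 gene). In the CPM table, where other genes of the list were above 0, it was -0.22 with limma, -0.13 with edgeR and -0.43 with DESeq2 (5 genes). In the same 3 fits the median was -1.26, -1.70 and -1.27 for collagen folding (6 genes), -1.11, -1.66 and -1.41 for proteoglycans and matrix partners (2 genes), -3.23, -3.22 and -2.57 for bile duct markers (1 gene), -1.67, -2.33 and -1.68 for hepatocyte markers (5 genes) and 1.34, 1.25 and 1.27 for ER chaperones (5 genes). For the heat shock list it was 0.63, 0.84 and 0.49 (6 genes), and for the activated stellate list 0.19, 0.38 and 0.31 (2 genes). For procollagen cleavage it was -1.34, -1.34 and -1.03 (2 genes), and for endothelial markers -0.21, -0.16 and -0.26 (6 genes). The median of the resting stellate list was -0.26, -0.23 and -0.26 (3 genes) and 0.02 to 0.45 with 1 library left out (0.45 without WT replicate 2). With 1 library left out, the median ran from 0.14 (without KO replicate 3) to 0.38 (without WT replicate 2) for collagen folding, from 0.23 (without KO replicate 1) to 0.60 (without KO replicate 3) for proteoglycans and from -0.13 (without KO replicate 1) to 0.07 (without WT replicate 2) for procollagen cleavage. The cause was not tested. In a fit without 1 library the lone library of its genotype is assumed to vary like the others. No paired analysis was possible because the labels give no litter and no pairing of the mice. TPM keep no depth, so no counting error can be given for genes near 1 TPM.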
